A study of Rattus norvegicus with 49 samples.

Results

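The chaperone genes of the endoplasmic reticulum were followed across 13 groups of rat thyroids, in animals given 131I or left untreated. The 10 genes, Hspa5, Hsp90b1, Hyou1, Calr, Canx, Pdia3, Pdia4, Pdia6, Dnajb9 and Sdf2l1, were chosen by name, and their probes were found through the RefSeq accession of each array probe. All 10 were found, among 15154 gene symbols that had a probe. Sdf2l1 had 2 probes, whose levels followed each other over the 49 arrays (Pearson's r = 0.989), and every other gene had 1.

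Each array was described as RNA of the thyroid of 1 male Sprague Dawley rat, and arrays that leave this in doubt are named below. Rats called young were given 131I at 5 weeks of age and those called adult at 17 weeks. Young rats received 50 kBq and were examined 3, 6 or 9 months later, at 4, 7 and 10 months of age, or received 0.5, 5 or 500 kBq and were examined after 9 months, at 10 months of age. Adult rats received 50 kBq and were examined 3, 6 or 9 months later, at 7, 10 and 13 months of age. Untreated controls were 4, 7, 10 or 13 months old. There were 4 arrays per group, or 3 for the rats given 5 kBq and for the oldest and the 7-month controls. The design asks whether 131I changes expression in the thyroid, and whether activity, time and age at injection matter. The tissue was whole thyroid, so that a lower level can come from fewer cells of a type or from less RNA per cell, which cannot be told apart.

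The endoplasmic reticulum is where secreted and membrane proteins fold. Follicular thyrocytes fold and export thyroglobulin, a very large disulfide-rich protein, and carry a dense endoplasmic reticulum for it. Hspa5 (BiP) is the Hsp70-type chaperone of this compartment, Hsp90b1 (GRP94) the Hsp90-type one, and Hyou1 (GRP170) a large relative that also exchanges the nucleotide of BiP. Calr and Canx, calreticulin and calnexin, hold glycoproteins by their sugars, and Pdia3 (ERp57) works with them, while Pdia4 (ERp72) and Pdia6 form and rearrange disulfide bonds. Dnajb9 (ERdj4) is a J-domain co-chaperone of BiP, and Sdf2l1 is found in BiP complexes. When unfolded proteins build up, the sensors Atf6 and Ern1, the latter through splicing of Xbp1, raise the transcription of such genes through promoter elements bound by Atf6, NF-Y and Xbp1, while the sensor Eif2ak3 lowers translation.

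Those elements were looked for on both strands in RefSeq promoters of the rat build GRCr8, 250 bases before to 50 after each start site, and the stretches with a match are shown because they are what several of the 10 genes share in sequence. The element called ERSE was searched as CCAAT, any 9 bases, then CCACG. ERSE-II was searched as ATTGG, any base, then CCACG, and the UPRE core as TGACGTG. Of the 8 chaperone genes with a promoter in the table, 4 held an ERSE (Hspa5, Hsp90b1, Calr and Canx), against 0.0657% of all 33469 promoters. Hyou1 alone of the 8 held ERSE-II, found in 0.0508% of all promoters, and Hspa5 and Hyou1 held the UPRE core, found in 1.81%. The elements were searched because they are known to act on such genes, so these values describe sequences and are no test. The shares count promoters rather than genes. In the stretches below, written 5′ to 3′ in the direction of the gene, capitals mark the bases fixed in the search, so that an element read on the other strand appears as CGTGG followed by ATTGG or CCAAT. Hspa5 lies on chr3:38452861-38453011, plus strand, Hsp90b1 on chr7:23012327-23012489, minus strand, Calr on chr19:40213117-40213173, plus strand, Canx on chr10:35158049-35158107, minus strand, and Hyou1 on chr8:53602671-53602824, plus strand.
Hspa5: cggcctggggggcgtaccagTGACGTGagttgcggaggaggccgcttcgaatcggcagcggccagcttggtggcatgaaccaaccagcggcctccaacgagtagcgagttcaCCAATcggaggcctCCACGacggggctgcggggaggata
Hsp90b1: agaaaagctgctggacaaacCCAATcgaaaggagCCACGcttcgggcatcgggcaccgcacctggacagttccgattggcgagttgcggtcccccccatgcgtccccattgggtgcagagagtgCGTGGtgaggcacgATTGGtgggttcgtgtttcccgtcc
Calr: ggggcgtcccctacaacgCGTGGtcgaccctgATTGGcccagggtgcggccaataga
Canx: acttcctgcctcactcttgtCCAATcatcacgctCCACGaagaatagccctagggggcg
Hyou1: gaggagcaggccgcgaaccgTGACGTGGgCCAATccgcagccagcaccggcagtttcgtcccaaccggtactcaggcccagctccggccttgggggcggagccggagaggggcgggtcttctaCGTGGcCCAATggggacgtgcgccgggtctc
Hspa5 carried the UPRE core from position -135 and the ERSE from -43, counted from the start site. Hsp90b1 carried 2 ERSE, and Hyou1 carried 2 ERSE-II, the distal of which overlaps its UPRE core. A match describes letters, not binding. Of the other genes of the secretory pathway listed below, Creld2, Derl3, Dnajc3, Ero1b and Xbp1 held an ERSE, and Dnajb11 and Herpud1 held ERSE-II.

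All levels are log2 of the scanner's background-subtracted signal minus the 75th percentile of that array, so that 0 is the 75th percentile, and a difference of 1 is a 2-fold change. Levels of different genes come from different probes and were not set against each other. The 75th percentile signal lay between 783 and 4172 on 48 arrays and at 61 on the array labelled young, 50 kBq, 3 months, replicate 2, where 43.1% of spots were well above background against 69.2% to 82.5% elsewhere. The arrays labelled 7-month control replicate 2 and young, 50 kBq, 3 months, replicate 3 lacked the transcripts that define a thyroid. Their level of Tg, thyroglobulin, was -0.69 and 0.14, against 6.41 to 7.91 on 46 arrays, and their mean of 13 follicular thyrocyte markers was -6.35 and -5.55 against -1.39 to 0.98. On these 2 arrays 9 and 7 of the 10 chaperone genes, in this order, lay below every one of the 46 arrays. Sdf2l1, for example, stood at -1.55 and -0.49. Results are therefore given over all 49 arrays and without these 3.

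**Figure D1:**
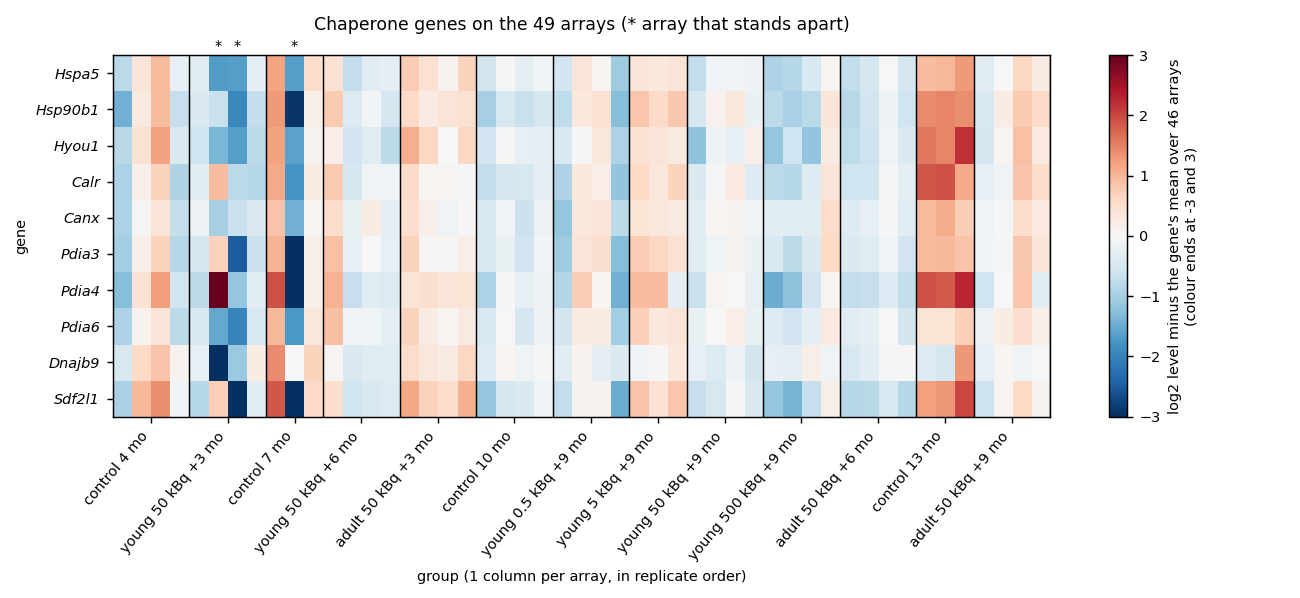
Heat map of the 10 chaperone genes (vertical axis) on the 49 arrays (horizontal axis, grouped, in replicate order), coloured by log2 level minus the gene's mean over 46 arrays. The 3 marked arrays stand apart, the 13-month controls are red for all genes but Dnajb9 on 2 arrays, and within most groups a column is red or blue for most genes at once.

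The levels of the 10 genes followed each other from animal to animal. Over the 46 arrays, the 45 pairs of genes had a median r of 0.87, from 0.38 to 0.96, and 41 pairs were above 0.5. With each group's mean removed, the median was 0.86, so the pairs followed each other within groups as well. These are descriptions over arrays that share scaling, tissue and scan dates. Dnajb9 followed the others least, with a median r of 0.55, and Hsp90b1 the most closely, at 0.92. Within groups Pdia4 varied most, with an SD of 0.668, and Dnajb9 least, at 0.373, while the median over all tested probes was 0.39.

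The group means of the 10 genes averaged per array spread over a wide range. Relative to the mean of the 46 arrays, the 13-month controls stood highest, at 1.19 ± 0.175 (SD, n = 3). Next came the 7-month controls at 0.795 ± 0.695 (SD, n = 2, without the array lacking thyroid transcripts), the 5 kBq group at 0.474 ± 0.097 (SD, n = 3) and the adult group 3 months after 50 kBq at 0.408 ± 0.222 (SD, n = 4). The adult group at 9 months stood at 0.138 ± 0.400 (SD, n = 4) and the 4-month controls at -0.064 ± 0.831 (SD, n = 4). The other groups lay lower, from -0.101 in young rats 6 months after 50 kBq to -0.469 in young rats 3 months after it. Between neighbours in this order the ranges of single arrays overlapped, so that neighbours did not differ beyond their spread. The 3 arrays of the 5 kBq group, at 0.411 to 0.586, lay above every 10-month control, at -0.678 to -0.187. The 4-month controls alone ran from -0.967 to 0.871.

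**Figure D2:**
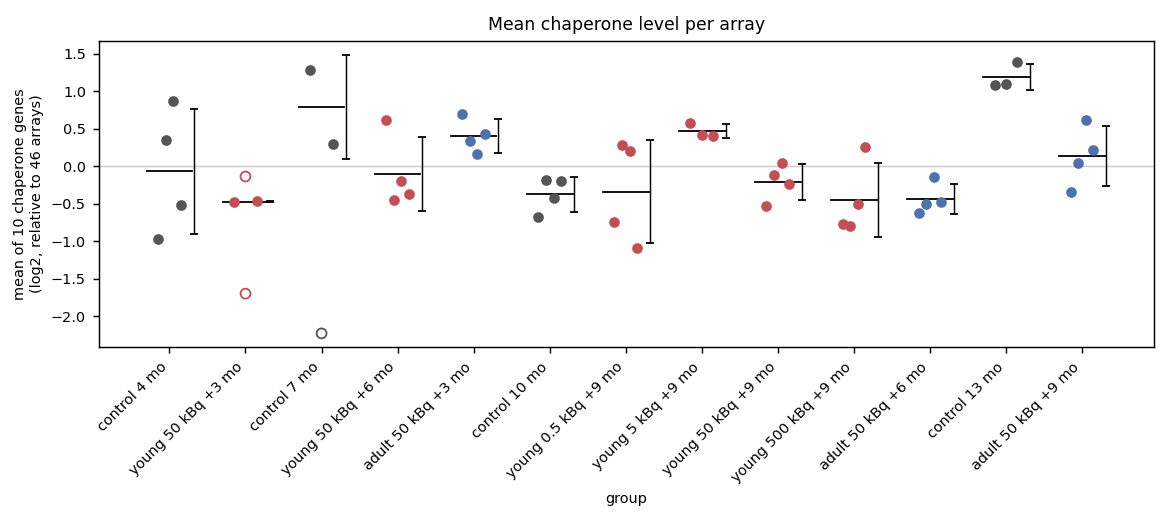
Mean of the 10 chaperone genes per array (vertical axis, log2 relative to the mean of 46 arrays) by group (horizontal axis). Filled points are arrays in grey for controls, red for young and blue for adult exposed rats, open points the 3 arrays that stand apart, lines and bars the mean and SD of the filled points. The 5 kBq arrays sit between 0.411 and 0.586 and the 13-month controls between 1.08 and 1.39.

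In young rats 9 months after injection, the chaperone genes were higher at 5 kBq than in the 10-month controls, but no gene passed the test across all probes. Hsp90b1 had the largest difference. Its level was 4.50, 4.26 and 4.48 at 5 kBq and 2.67, 3.19, 3.00 and 3.18 in the controls, so that the groups did not overlap. The log2 fold change was 1.40 ± 0.561 (SE), with a raw p of 0.0168 and an adjusted p of 1 (limma). The luminal co-factor Sdf2l1 read 3.84, 3.40 and 3.82 against 1.83, 2.48, 2.54 and 2.86, a difference of 1.26 ± 0.807 (SE). Calr, which holds glycoproteins in the lumen, read 3.26, 3.01 and 3.34 against 1.94, 2.16, 2.20 and 2.37, a difference of 1.04 ± 0.473 (SE). Both sets of 5 kBq arrays lay above all controls.

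Hspa5 read 5.26, 5.17 and 5.25 at 5 kBq against 4.31, 4.81, 4.56 and 4.78, and its large relative Hyou1 read 2.96, 2.88 and 2.77 against 1.92, 2.53, 2.26 and 2.22. Pdia3, the partner of the lectin chaperones, read 3.26, 3.12 and 2.96 against 2.04, 2.28, 1.92 and 2.42, a difference of 0.95 ± 0.594 (SE). These 3 genes again did not overlap with the controls. Canx and Pdia6 differed by 0.70 ± 0.360 and 0.76 ± 0.410 (SE). Every 5 kBq array lay above every control for 8 of the 10 genes, where the same held for 8.55% of all probes. The other two were Pdia4, at 0.78, 0.78 and -0.44 against -1.10, -0.20, -0.39 and -0.29, and Dnajb9, at -0.25, -0.14 and 0.16 against -0.54, -0.10, -0.29 and -0.21. In both, at least 1 animal given 5 kBq fell among the controls. In limma's fit 0 of 10 genes were called beside 3 of 25284 probes (0.0119%), and Hsp90b1 and Calr had a raw p under 0.05, as did 462 of all probes. The median difference of the 10 genes was 0.82 beside -0.02 for all probes, and their 95% intervals ran as low as -1.05 and as high as 2.89. Without the 3 arrays 6 genes had a raw p under 0.05, beside 1659 of 25156 probes, and the lowest adjusted p of the 10 was 0.725. Within scan dates the median difference was 0.756 on the first date (1 array against 3) and 0.91 on the third (1 against 1), where 9 of 10 genes were higher.

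Other genes stood apart between the same animals. Dbp, a clock output gene, fell by 2.26 on the log2 scale at 5 kBq (SE 0.342, adjusted p = 0.000843, limma). The mean of 8 clock genes with its phase lay between -0.58 and -0.28 at 5 kBq and between 0.44 and 1.20 in the controls. The mean of 13 follicular thyrocyte markers lay between 0.32 and 0.46 against -0.45 to 0.36, with 10 of 13 higher and none called. Means of 9 skeletal muscle and 9 adipocyte markers were lower at 5 kBq for all 9 of each, none called. Per array both lists overlapped, muscle at -0.16 to 0.69 against 0.49 to 0.82 and adipocyte at -0.95 to 0.68 against 0.16 to 0.93. The mean of 6 squamous markers was -0.845, -2.697 and -1.221 at 5 kBq and 4.903, -2.767, 3.729 and -2.825 in the controls. On the same control arrays, in the same order, the mean of the 10 chaperone genes was -0.678, -0.187, -0.424 and -0.189. Tg differed by -0.49 (SE 1.26, or 0.22 without the 3 arrays). The 75th percentile signal was 3628.6 to 3653.1 at 5 kBq and 1842.1 to 2802.5 in the controls, and its bearing on the scaled level of Tg was not tested. The part of these in the chaperone levels was not tested.

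The other activities were compared with the same controls. The median difference from the 10-month controls was 0.0014 after 0.5 kBq. It was 0.17 after 50 kBq, and 500 kBq gave 0.024. With slide as a block the latter values were -0.18 and -0.63, and with scan date as a block 500 kBq gave -0.44. No gene separated from the controls. No gene was called, where 0%, 0.0119% and 0% of all probes were called, in this order, and no raw p was under 0.05. The 0.5 kBq group was split, with Calr at 1.75, 2.98, 2.88 and 1.49 and Hspa5 at 4.30, 5.25, 4.94 and 3.79, so that replicates 2 and 3 were high and the other two low for both. Against the other activities, 5 kBq lay above every array of 50 kBq for 9 of 10 genes (3.32% of all probes), of 500 kBq for 5 (1.26%) and of 0.5 kBq for 4 (1.71%). No chaperone gene was called in these 3 comparisons (0% of probes in each), whose median differences were 0.70, 0.92 and 0.83. Raw p fell under 0.05 for 3 genes against 500 kBq, Hspa5, Hsp90b1 and Hyou1, beside 359 of 25284 probes, and for none against 0.5 or 50 kBq. On the 46 arrays this held for 8 genes against 500 kBq, 7 against 0.5 kBq and 1 against 50 kBq, still with no call. Of 25156 probes it then held for 1201, 1005 and 1082, in this order. All these comparisons share the same 3 arrays. A linear fit of level on log10 activity, over the 15 arrays of rats given 131I, called no gene (0% of 23116 probes) and gave no raw p under 0.05, and its values ran from -0.18 for Hyou1 to 0.025 for Canx per 10-fold activity.

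**Figure D3:**
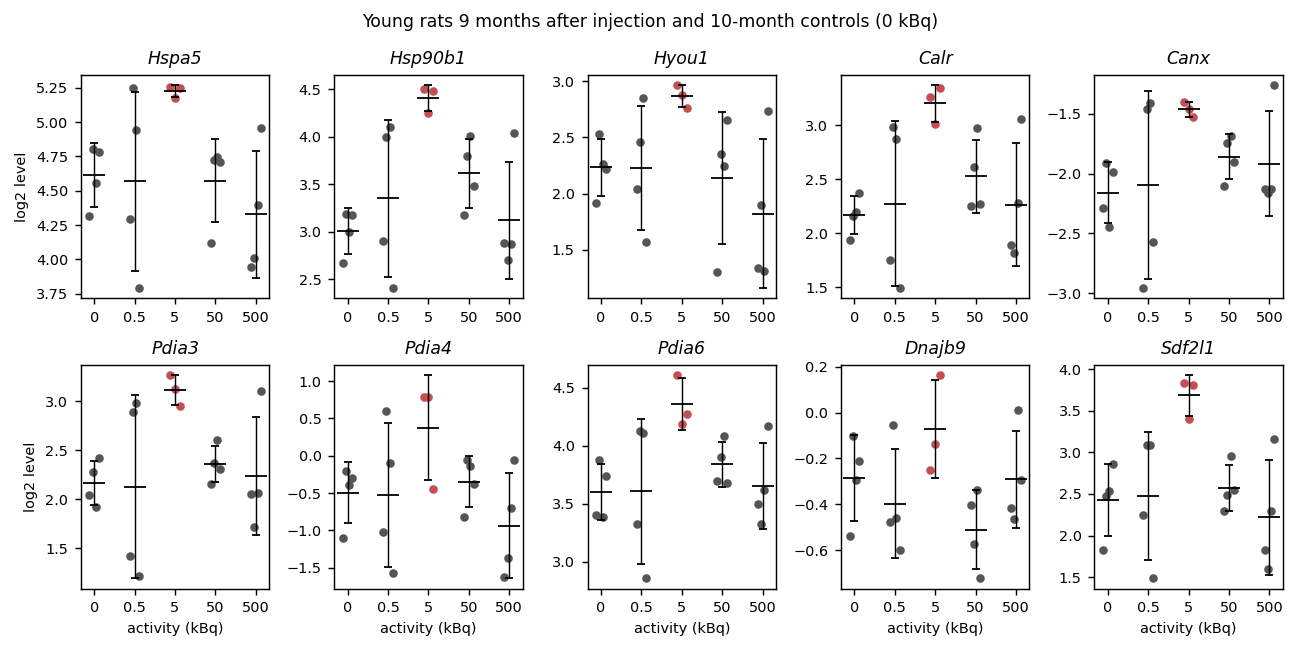
Levels of each chaperone gene (vertical axis, log2 relative to the array's 75th percentile, a scale of its own per panel) in young rats 9 months after 0.5, 5, 50 or 500 kBq and in 10-month controls, drawn at 0 kBq (horizontal axis, categories). Points are arrays, red at 5 kBq, and bars the mean and SD. The 5 kBq arrays of Hsp90b1 lie between 4.26 and 4.50 and every other array shown at or below 4.10.

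Among untreated rats the oldest group had the highest mean, but the order of the group means was not that of age, since the 10-month controls had the lowest. In untreated rats of 13 months, 9 of the 10 genes had a higher mean than in those of 4 months, and Calr rose past the test. Its level was 4.55, 4.58 and 3.81 at 13 months and 1.71, 2.82, 3.36 and 1.77 at 4 months, with no overlap. The difference was 1.90 ± 0.473 (SE, adjusted p = 0.0071, limma). Canx, its membrane-bound relative, read -0.85, -0.68 and -1.06 against -2.75, -1.76, -1.43 and -2.51, a difference of 1.25 ± 0.360 (SE, adjusted p = 0.0159, limma), just short of the threshold. Hyou1 read 4.08, 3.96 and 4.70 against 1.65, 2.95, 3.70 and 2.06, and its difference of 1.65 ± 0.459 (SE) had an adjusted p of 0.0131 in the same limma fit. The older animals were above all younger ones in both genes.

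Hsp90b1 read 5.09, 5.14 and 5.08 against 2.24, 3.98, 4.63 and 2.99, a difference of 1.65 ± 0.561 (SE). Pdia4 had the largest, 2.06 ± 0.949 (SE), from 1.76, 1.69 and 2.15 against -1.42, 0.30, 1.11 and -0.74. The 3 older levels were close together and the 4 younger ones wide apart in both. Dnajb9 alone had no difference of note in its mean, -0.14 ± 0.426 (SE), with -0.58, -0.66 and 1.15 against -0.64, 0.43, 0.69 and -0.04. Replicate 3 of the 13-month controls was high in it and the other two low.

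For 7 of the 10 genes every 13-month array lay above every 4-month one, which held for 21.5% of all probes. Called was 1 of 10, beside 5.15% of all probes, which does not set the chaperone genes apart from other probes. Without the 3 arrays the same differences gave 5 called genes, Calr, Hyou1, Hsp90b1, Canx and Pdia4, where 22% of all probes were called. Replicates 1 and 2 of the 13-month controls were closer than any other pair of arrays, with an SD of their log2 difference of 0.178 over probes well above background on all arrays, against a median of 0.618 for all pairs. They lie on different slides and scan dates. Whether they hold 1 RNA hybridised on 2 arrays was not tested, and if so the group holds 2 samples and its SD is too small. With this pair, and a close pair of adult rats at 6 months, each averaged to 1 sample, no chaperone gene was called over the remaining arrays (Calr adjusted p = 0.0506, limma). With the 3 arrays also left out, 3 were (Hyou1, Calr and Pdia4), beside 2558 of 25138 probes. Without either one of this pair, or without 4-month control replicate 1 or 4, none was called, and the adjusted p of Calr lay between 0.0372 and 0.045 (limma). Without 4-month control replicate 3, Calr, Hyou1 and Canx were called. Shares of all probes called are not given for leaving out 1 array, so these counts do not set the chaperone genes apart. Within scan dates the median difference was 1.48 (2 arrays against 2) and 1.07 (1 against 2). Neither the 7-month nor the 10-month controls had a called chaperone gene against the 4-month controls (0.00396% and 0.0119% of probes called) or a raw p under 0.05, and their median differences were -0.12 and -0.31. Without the 3 arrays the first was 0.87, with all 10 genes higher and 5 at a raw p under 0.05, and the second kept its value with 1 gene under 0.05. Of 25156 probes, 3415 and 1756 had a raw p under 0.05, in this order.

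In adult rats 9 months after 50 kBq, all 10 genes had a lower mean than in the 13-month controls, and none passed the test over the 49 arrays. Hyou1 came nearest, with 2.00, 2.57, 3.38 and 2.79 against 4.08, 3.96 and 4.70, a difference of -1.56 ± 0.459 (SE, adjusted p = 0.0417, limma). Calr read 2.42, 2.55, 3.52 and 3.22 against 4.55, 4.58 and 3.81, a difference of -1.38 ± 0.473 (SE, adjusted p = 0.0761, limma). Pdia4 read -0.74, -0.15, 0.68 and -0.49 against 1.76, 1.69 and 2.15, and the log2 fold change was -2.04 ± 0.949 (SE). In each, no exposed array reached the lowest control.

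Sdf2l1 read 2.36, 3.06, 3.57 and 3.08 against 4.20, 4.30 and 4.99, a difference of -1.48 ± 0.807 (SE). Hspa5 and Hsp90b1 differed by -0.95 and -1.15. Pdia6, at 3.72, 4.12, 4.39 and 4.06 against 4.31, 4.31 and 4.59, and Dnajb9, at -0.40, -0.10, -0.27 and -0.16, overlapped with the controls. Every exposed array lay below every control for the other 8, where this held for 16.4% of all probes.

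Called were 0 of 10 genes, beside 0.558% of all probes, and 6 had a raw p under 0.05, beside 5537 of 25284 probes. Without the 3 arrays the same differences passed the test for Hyou1, Calr and Pdia4 (limma adjusted p of 0.00519, 0.00857 and 0.00377), where 8.99% of all probes were called, and with the close pairs averaged as well they did not. The median difference was -1.05 beside -0.14 for all probes, and -1.09 on the 1 scan date that held both groups (2 arrays against 2). With slide as a block it was -0.58, and Pdia6 differed by 0.0758. This comparison and that of the controls by age use the same 3 arrays of 13 months, the group with the highest mean of the 10 genes.

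**Figure D4:**
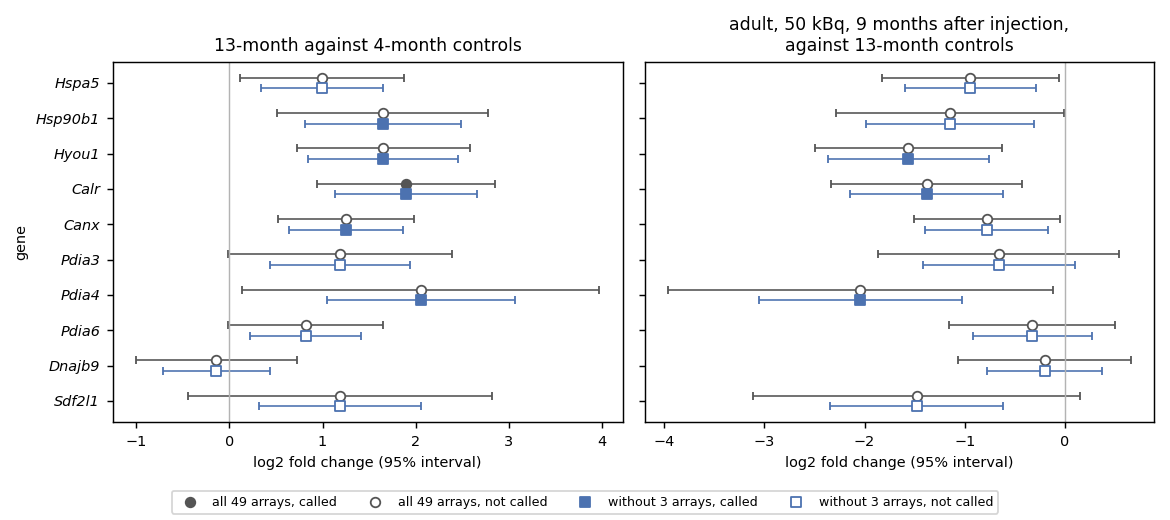
Log2 fold change (horizontal axis) of each chaperone gene (vertical axis) for 13-month against 4-month controls and for adult rats 9 months after 50 kBq against 13-month controls, with 95% intervals. Grey circles are from all 49 arrays, blue squares without 3 arrays, and filled marks passed the test. Both panels share the 13-month controls. Calr at 1.90 is the only filled circle.

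Markers of cell types moved with these same arrays. All 13 thyrocyte markers had a higher mean in the 13-month than in the 4-month controls, with a median difference of 1.65. None was called, and 5 were without the 3 arrays, where 22% of all probes were. Their mean per array lay between 0.78 and 0.98 at 13 months, between -1.39 and 0.57 at 4 months and between -0.21 and 0.36 in the exposed adults at 9 months. The mean of 9 skeletal muscle markers lay between -2.90 and -2.23 in the 13-month controls and between -0.50 and 0.77 in the 4-month ones, that of 6 squamous markers between -2.40 and -1.75 and between -2.02 and 5.72, and that of 9 C cell markers between 0.69 and 2.97 and between -2.74 and -0.45. Of 6 fibroblast markers, Col1a1 was called and all 6 were lower at 13 months. Between the exposed adults at 9 months and the 13-month controls, the mean of 9 adipocyte markers lay between 0.30 and 0.99 against -1.79 to 0.26, with all 9 higher. That of 8 plasma cell markers lay between -0.72 and -0.14 against -0.01 to 0.24, and that of skeletal muscle was 0.44, 0.74, -8.64 and 0.64 on the exposed arrays. The clock gene Nr1d1 fell by 2.87 on the log2 scale at 13 months (adjusted p = 0.00135, limma). The 75th percentile signal was 1332.8 to 1440.8 in the 13-month controls, 1737.6 to 3233.6 in the 4-month ones and 2426.2 to 3580.1 in the exposed adults at 9 months. The part of the markers, the clock gene and this signal in the chaperone differences was not tested.

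At 3 and 6 months after 50 kBq the comparisons rested on single arrays, except that of adult rats at 6 months. In young rats at 3 months, no chaperone gene was called against 4-month controls (0.0119% of probes), and 4 had a raw p under 0.05, beside 9591 of 25284 probes. A lower mean was found for 9 of 10, with a median difference of -0.77 beside 0.30 for all probes. The lowest adjusted p, 0.0267 for Dnajb9 (limma), came with levels of -0.42, -3.22, -1.27 and 0.05, where replicates 2 and 3 are the arrays that stand apart. Pdia4 stood at 5.48 on replicate 2 against -0.93, -1.31 and -0.45. Without those 2 arrays the median difference was -0.35, and no raw p was under 0.05. In young rats at 6 months the median difference from 7-month controls was 0.23, and without the control array lacking thyroid transcripts it was -0.91, with all 10 genes lower. In adult rats at 3 months the corresponding values were 0.58 and -0.37. None was called in either (0% of probes), also without that array. The raw p was under 0.05 for 1 gene in young and for 0 in adult rats, beside 1659 and 1198 of 25284 probes. On the 46 arrays it was for 4 and 0, beside 2652 and 2058 of 25156 probes. The 7-month controls then hold 2 arrays, which differ widely, as Sdf2l1 does at 4.85 and 3.55. In adult rats at 6 months the median difference from 10-month controls was -0.06, with no called gene (0% of probes) and no raw p under 0.05.

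Rats of the same age that had received 50 kBq at different ages were compared directly. At 7 months of age, young rats had a lower mean than adult rats for all 10 genes, with a median difference of -0.50. Dnajb9 read -0.07, -0.59, -0.53 and -0.52 in young rats and 0.39, 0.18, 0.09 and 0.47 in adult ones. Sdf2l1 read 3.49, 2.37, 2.52 and 2.59 against 4.13, 3.67, 3.50 and 4.06. These 2 genes did not overlap (0.855% of all probes in this direction), and none of the 10 was called (0% of probes). Hyou1 alone of the 10 had a raw p under 0.05, beside 197 of 25284 probes. At 10 months of age the median difference was 0.23, with no separation, no call (0.0119% of probes) and no raw p under 0.05. The 9 tests of whether the effect of 50 kBq differed between times or between young and adult rats called no chaperone gene (0% of probes in each). Across these tests 995 to 7545 of 25284 probes had a raw p under 0.05, as did 0 to 7 of the 10 genes, 7 where 3935 probes did. The lowest adjusted p among them was 0.0715 (limma), for young minus adult rats at 3 months, with a median of -1.31. That comparison rests on the arrays that stand apart, and without the 3 its median was 0.073 and its lowest adjusted p 0.864 (limma). The lowest was then 0.03 (limma), for Calr in young minus adult rats at 9 months, where the effect of 50 kBq differed by a median of 1.28. There 7 of 10 genes had a raw p under 0.05, beside 6759 of 25156 probes, and none was called, beside 567 of all probes.

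The rest of the folding and export machinery was examined in the same comparisons, which share the 13-month controls. Of 17 tested other folding factors, 17 had a higher mean in the 13-month than in the 4-month controls and 17 a lower one in the exposed adults at 9 months. Erp29, a thioredoxin-like folding factor, rose by 1.26 (adjusted p = 0.00785, limma) in the former and was the only one called. Of all probes, 5.15% were called between these controls and 0.558% in the exposed adults. Of 8 sensors and factors of the unfolded protein response, Atf6 rose by 1.25 and Nfyb, a subunit of NF-Y, by 0.85 (limma adjusted p of 0.0073 and 0.00393). In the exposed adults Ddit3, the CHOP transcription factor, fell by 1.44 (adjusted p = 0.00716, limma). Of 9 degradation genes 9 were higher in the older controls with none called, and 9 were lower in the exposed adults, where Herpud1 fell by 1.49 (adjusted p = 0.00988, limma). Of 14 genes of the translocon and signal peptide handling, Sec61b was higher by 1.19 in the older controls (adjusted p = 0.00813, limma), and none was called in the exposed adults. Without the 3 arrays more were called in the older controls, 7 folding factors, 4 sensors and factors, 2 degradation genes and 5 translocon genes, all higher, where 22% of all probes were called. In the exposed adults 2 folding factors (Fkbp2 and Calu), 4 sensors and factors (the largest changes in Ddit3, Eif2ak3 and Atf6), 3 degradation genes (Herpud1, Syvn1 and Sel1l) and no translocon gene were then called, all lower, where 8.99% of all probes were called. At 5 kBq no gene of these lists was called, and 16 of 17, 6 of 8, 8 of 9 and 13 of 14 had a higher mean, in the order given, with medians of 0.30, 0.14, 0.44 and 0.29. The 7 cytosolic heat shock proteins had median differences of -0.29 in the older controls, 0.10 in the exposed adults and -0.13 at 5 kBq, none called. Without the 3 arrays Hspb1 was called as lower in the older controls.

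The level of the 10 genes per array followed several lists over the 46 arrays, as a description over arrays that share scaling. The correlation was 0.98 with the other folding factors, 0.97 with the degradation genes, 0.94 with the translocon genes and 0.90 with the sensors and factors (Spearman's rho 0.97, 0.97, 0.94 and 0.91). It was -0.30 with the cytosolic heat shock proteins (rho -0.34). With the 13 thyrocyte markers r was 0.86 (rho 0.89, and r 0.84 without the 2 arrays farthest from the median), with skeletal muscle -0.55 (rho -0.66), and with the clock genes of the phase of Dbp -0.70 (rho -0.76). Among other secretory cell types, it was 0.49 with C cell markers (rho 0.45), 0.16 with those of the parathyroid (rho 0.25) and -0.09 with those of plasma cells (rho -0.03). With Tg it was -0.05 (rho -0.11). The scaled level of Tg was lowest, at 6.41, on the array with the highest 75th percentile signal, 4172. It was highest, at 7.91, on 13-month control replicate 1, where that signal was 1412. No spot was flagged as saturated, but whether the Tg probe was near the top of the scanner's range was not tested. The bearing of the 75th percentile signal on the r with Tg was not tested.

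**Figure D5:**
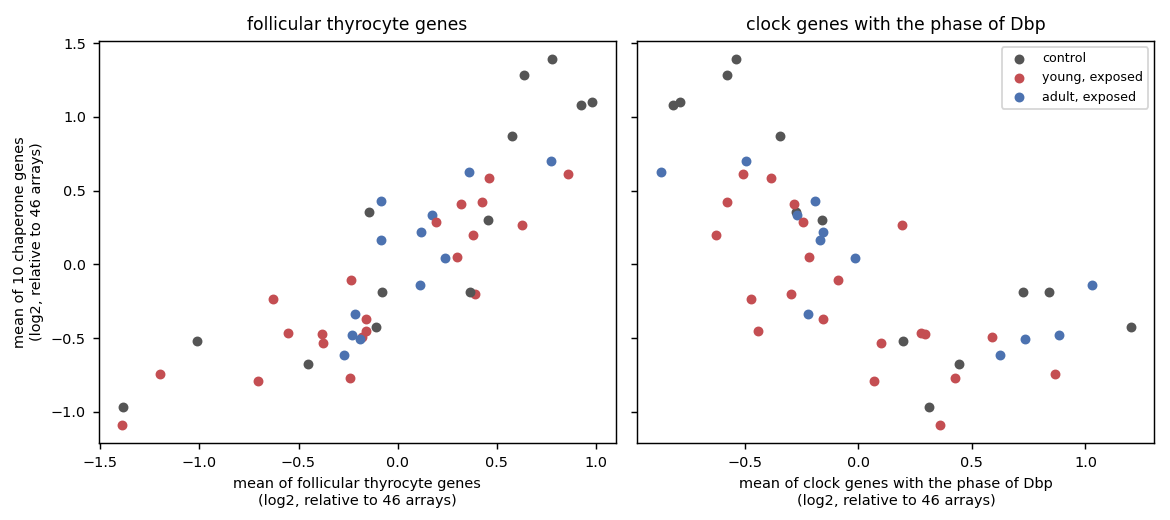
Mean of the 10 chaperone genes (vertical axis) against the mean of 13 follicular thyrocyte markers and of 8 clock genes with the phase of Dbp (horizontal axes), all log2 relative to 46 arrays. Each point is 1 of the 46 arrays, in grey for controls, red for young and blue for adult exposed rats. The points rise with the thyrocyte markers (r = 0.86) and fall with the clock genes (r = -0.70).

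Among 6356 other genes well above background on all arrays, those most like the mean of the 10 over the 49 arrays were Tes (r = 0.945), Fkbp11 (0.938), Isyna1 (0.934), Ssr1 (0.931), Ptpre (0.929), Rpn1 (0.928), Sec61b (0.928), Actn1 (0.927), Xbp1 (0.926) and Smim14 (0.924). The median r of all these 6356 genes was -0.05 and the 95th percentile 0.79. Ssr1 and Sec61b belong to the translocon, Rpn1 to the enzyme that attaches N-linked sugars, Fkbp11, a folding factor of secretory cells, is also on the list of plasma cell markers, and Xbp1 is a transcription factor of the unfolded protein response. Over the 46 arrays Dnajc3, a co-chaperone of BiP, came first at 0.969 and Xbp1 second at 0.948. Both held an ERSE in their promoters, while no match to ERSE or ERSE-II was found for the others of these first 10. Tes, Isyna1, Rpn1, Fkbp11 and Ptpre were again among the first 10.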

How the data were processed

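The authors deposited the scanner output of each Agilent Sureprint G3 Rat GE 8x60K array. The deposited intensity used here had its background removed spot by spot but was on no common scale, and 0 or 1 marks beside it (other units) flag outliers and signals well above background. A deposited sheet of the authors' fold changes was not used, and only Partek, without a version, is named in the submitters' processing notes for it. Spots of controls and outliers were dropped, log2 of the deposited signal was taken, each array's 75th percentile was subtracted, and spots of a probe were averaged. Of 30367 probes, 17998 matched a symbol through RefSeq (GRCr8). A gene was read by its brightest probe.

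All 49 arrays entered 1 fit with 13 group means (limma 3.58.1, R 4.3.3), over 25284 probes well above background on at least 3 arrays, with 2.22 prior degrees of freedom. The threshold for a call was an adjusted p (Benjamini-Hochberg, over all tested probes) under 0.01 with a fold change beyond 1.5. The slope was called at an adjusted p under 0.01 alone. The fit was tested on simulated data. For plots, matplotlib 3.10.9 was used (Python 3.11.15, numpy 2.4.6, pandas 2.3.3). The precision is limited by the number of arrays, 2 to 4 per group.

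The genes and lists were chosen with earlier results of these data known. Named are all 10 genes, Tg, up to 3 called genes per list and comparison, and the 10 genes most alike. The lists cover folding factors, the unfolded protein response, degradation, translocon, cytosolic heat shock and clock genes, and markers of 10 cell types. Alternatives concerned background, scaling, filter, threshold, blocks, weights, fitted arrays, probes and left-out arrays. Leaving out 3 arrays and averaging 2 close pairs (13-month controls and adult rats at 6 months, replicates 1 and 2 of each) were chosen after seeing the data. One marker gene is not reported here.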

Additional observations from a re-analysis of the deposited data

Results flagged for a closer look

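Of 100 sets of a gene and a group of 4 arrays, 8 had an array far from the other 3, and chance gives about 1 in 20. In young rats 3 months after 50 kBq, Pdia4 was 5.478 on replicate 2, the array of low signal, against -1.307 to -0.454. In young rats 9 months after 500 kBq, replicate 4 was high in Hsp90b1 (4.038 against 2.70 to 2.88) and in Canx (-1.257 against -2.159 to -2.125). In young rats 6 months after 50 kBq, replicate 1 was high in Pdia6 (4.795 against 3.617 to 3.812) and in Dnajb9 (-0.074 against -0.586 to -0.523). In adult rats 6 months after 50 kBq, replicate 3 was high in Pdia4 (-0.547 against -0.874 to -0.831) and in Sdf2l1 (2.498 against 2.132 to 2.155). In young rats 9 months after 50 kBq, Hspa5 was low on replicate 1, at 4.118 against 4.709 to 4.748.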

How the results depend on the processing

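For young rats at 5 kBq, no chaperone gene was called under any setting tried, and the median difference from the controls was 0.67 to 0.91 on leaving out 1 array and 0.6359 with scan date as a block. For 13-month against 4-month controls, the number called was 3 with scan date as a block, 4 with slide as a block, 4 at an adjusted p under 0.05, 8 with array weights, 5 without 3 arrays, 0 with close pairs averaged and 3 with both, and 0 to 3 on leaving out 1 array. For adult rats 9 months after 50 kBq it was 1 at an adjusted p under 0.05, 8 with array weights, 3 without 3 arrays, and 0 on leaving out any 1 array, and the median was -0.5813 with slide as a block and -1.21 to -0.85 on leaving out 1 array. All probes called in these 2 comparisons numbered 1302 and 141, and with array weights 9033 and 7860. Array weights also gave 1 called gene in young rats at 6 months, 8 for 5 against 500 kBq, and 6, 5 and 5 for the effect of 50 kBq in adult rats at 9 minus 3 months, at 9 minus 6 months, and at 9 months in young minus adult rats. Shares of all probes called are not given for these, nor for scan date or slide as a block, an adjusted p under 0.05, or leaving out 1 array. Those counts therefore do not set the chaperone genes apart from other probes. In young rats at 3 months 2 were called at an adjusted p under 0.05, and 0 to 1 on leaving out 1 array. With slide as a block the median was -0.1807 in young rats 9 months after 50 kBq, -0.6256 after 500 kBq and -0.4881 in adult rats at 6 months, and with scan date as a block -0.4385 after 500 kBq. On leaving out 1 array the median ran from -1.07 to -0.43 in young rats at 3 months, from -0.91 to 0.78 at 6 months, from -0.17 to 0.26 after 0.5 kBq, from -0.21 to 0.11 after 500 kBq and from -0.37 to 1.19 in adult rats at 3 months. The cause of these shifts was not tested. Direction turned for Pdia6 in adult rats at 9 months with slide as a block (0.0758) and for Dnajb9 there with array weights (0.32), and for Dnajb9 between 13 and 4 months with close pairs averaged (0.15, also without the 3 arrays). On leaving out 1 array Dnajb9 ran from -0.52 to 0.39 in the former and from -0.73 to 0.17 in the latter. Replicate numbers did not pair the arrays: deviations of same-numbered arrays had a mean r of -0.017, those of other numbers 0.006. With the replicate number as a block, 0 chaperone genes were called between 13- and 4-month controls (Calr 1.86, adjusted p = 0.0127, limma) and 788 probes in all. The dim array limits what 50 kBq at 3 months can show.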
